A study of Bombus lucorum with 81 samples.

Results

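The gene expression of Bombus lucorum workers from grazed lowland grassland was compared with that of workers from ungrazed lowland grassland. Of the 81 bees of the series, 30 were caught at the 6 lowland sites and all of them were used. The grazed group held 15 bees, 5 each from the sites H_987, WM_766 and WM_960, where livestock graze. The ungrazed group held 15 bees, 5 each from the sites T_641, T_656 and T_746. All were foraging wild workers, and 1 library was made from the thorax and abdomen of each bee after its head and gut had been removed. Sites are named by transect and altitude, so that the grazed sites lay at 766 to 987 m on the H and WM transects and the ungrazed sites at 641 to 746 m on the T transect. Grazing, altitude and transect can therefore not be told apart in these bees. Sampling temperature was entered as a covariate, and 10 grazed and 7 ungrazed bees had been caught in the high temperature class, with all bees of H_987, WM_766 and T_656 in the high class and all of WM_960 and T_746 in the low class. The age, the colony and the nest site of the bees are not known, so that bees of 1 site may be related, and p-values over bees then measure partly the spread within sites.

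Grazing animals alter which plants flower in a meadow, and with them the nectar and pollen that bumblebees collect. The tissues left in a worker without head and gut include the flight muscle, which powers and warms the bee through mitochondrial respiration. They also include the fat body, the insect organ that stores lipid and protein, detoxifies plant compounds and makes immune and yolk proteins. The fat body follows age and reproductive state under the control of juvenile hormone, so that workers of 1 species can differ widely in its storage proteins. Because whole thorax and abdomen were sequenced, fewer cells of a type and less RNA per cell cannot be told apart.

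The 30 libraries held 15700759 to 32098326 counted reads each, with medians of 25795717 for grazed and 24663760 for ungrazed bees. Levels are given as counts scaled to library size (CPM), and fold changes as log2 of grazed over ungrazed with standard error (SE). Flight muscle genes were detected in every bee, with summed levels of 14 genes from 3140 to 62700 CPM. The share of each tissue in the RNA was not measured. Although the gut had been removed, transcripts typical of gut were high in some bees of both groups. In grazed bees the summed level of 18 such genes ran from 1030 through a median of 2590 to 67300 CPM. In ungrazed bees it ran from 945 through 2110 to 59500 CPM. The sites were not alike, with medians of 50300 CPM at T_656, 6570 at H_987, 2590 at WM_960, 2150 at T_641, 1560 at T_746 and 1520 at WM_766. Fits given below without T_656 therefore also leave out the site richest in these transcripts. The part of gut-type transcripts in the results was not tested beyond adding a gut score as a covariate.

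No single gene passed the test for grazing. By edgeR's quasi-likelihood test, 0 of 9273 genes were higher (0.0%) and 0 lower (0.0%) in grazed bees, where a gene was called if its adjusted p was under 0.05 and its log2 fold change 0.5 or more in size. At an unadjusted p under 0.05, 893 genes (9.63%) were higher and 419 (4.52%) lower in grazed bees. DESeq2 on the same counts and design called 79 genes higher and 60 lower, whereas limma-voom with the site as a random block called 0 and 0, although 281 and 257 genes passed the unadjusted level of 0.05. All fold changes and p-values given hereafter are those of edgeR, and a gene is described as higher or lower by its level, not as changed. The median log2 fold change of all genes was 0.04, and 58.2% of the genes had a value above 0.

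The 15 genes nearest to the threshold shared an adjusted p of 0.0505. Of these, 11 were higher and 4 lower in grazed bees, and in 12 the absolute log2 fold change was 0.5 or more. In all 15, the 3 grazed site means lay apart from the 3 ungrazed site means. This separation was found in 475 of all tested genes in the higher direction (5.12%) and in 279 in the lower direction (3.01%). An exact two-sided permutation test over the 6 site means cannot give a p below 0.1, which each of the 15 reached. The direction of these 15 genes was the same in all 57 fits run, but with single bees left out the adjusted p ran from 0.0115 to 0.114 and with single sites left out from 0.0124 to 0.494. Only 4 of them carry a name, namely 2 nose resistant to fluoxetine genes, a heat shock cognate gene and a protein listed as uncharacterized. Among the unnamed ones, LOC100645146 ranged from 21.01 through a median of 26.2 to 32.0 CPM in grazed bees and from 17.2 through 21.1 to 24.8 CPM in ungrazed bees. It had the least overlap, with 12 of the 15 grazed bees above the highest ungrazed bee, although its log2 fold change was only 0.38 (SE 0.07). LOC100646413, unnamed too, ranged from 3.87 through 9.08 to 16.7 CPM in grazed and from 9.02 through 15.8 to 37.0 CPM in ungrazed bees, a log2 fold change of −0.97 (SE 0.20).

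A group of genes with lower levels in grazed bees was formed by neighbouring genes named nose resistant to fluoxetine protein 6. The family takes its name from Caenorhabditis elegans, where nrf-6 encodes a membrane protein needed for the response to fluoxetine and for the passage of yolk lipid to the eggs. Of 6 genes with this name, 4 had enough counts to be tested, and 3 of them were lower in grazed bees at an unadjusted p under 0.05. This count stayed at 3 with any site or bee left out, but without T_656 the median was −0.69 and 1 gene was higher. In the high temperature class 3 were lower, with a median of −1.18. In the low class, where all grazed bees are of WM_960, 1 was lower and 1 higher, with a median of −0.50.

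LOC100650394 ranged from 1.82 through a median of 5.48 to 7.92 CPM in grazed bees and from 4.71 through 10.6 to 24.4 CPM in ungrazed bees. All 15 grazed bees lay below the ungrazed median, as in 22 of all tested genes (0.237%), and 6 grazed bees lay below the lowest ungrazed bee, so that the groups overlapped only at the low end of the ungrazed range. The site means were 4.73, 4.84 and 6.43 CPM at H_987, WM_766 and WM_960 against 11.96, 12.8 and 9.51 CPM at T_641, T_656 and T_746. Its log2 fold change was −1.13 (SE 0.22, n = 15 and 15 bees, adjusted p = 0.0505). LOC100649919 ranged from 3.77 through 8.12 to 15.4 CPM in grazed bees and from 8.15 through 14.7 to 37.3 CPM in ungrazed bees, a log2 fold change of −1.06 (SE 0.22, adjusted p = 0.0505). In this gene 8 grazed bees lay below every ungrazed bee. LOC100645518 ranged from 7.99 through 18.1 to 38.6 CPM and from 15.3 through 34.5 to 82.4 CPM, with a log2 fold change of −0.86 (SE 0.23, adjusted p = 0.104). Bee 5 of T_641 had the highest level of each of the 3 genes.

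The 3 genes lie within 133 kb of 1 contig, together with another member, LOC100644360, that was too low to test, and with 1 further unnamed gene, LOC110120329. That gene was lower in grazed bees as well, with a log2 fold change of −1.22 (SE 0.43, adjusted p = 0.188). Between 96.7% and 100% of the values of the 3 genes were not whole numbers. Such values arise where the authors divided a read among several alignments or overlapping genes, and 28.5% of all values of the table are of this kind. Over the 30 bees the log2 levels of the 3 genes had Pearson correlations of 0.88, 0.919 and 0.949 with each other. Their correlations with the fourth tested gene of this name lay between −0.127 and −0.043. Which genes shared these reads was not tested, so that the levels of single members are uncertain. The 3 genes cannot be counted as independent measurements. The other tested member, LOC100646807, was not lower in grazed bees. Its levels ran from 0.443 through 8.08 to 38.5 CPM in grazed and from 0.598 through 1.58 to 47.0 CPM in ungrazed bees, with 4 of the 5 bees of T_656 high, and its log2 fold change was 1.07 (SE 0.78, adjusted p = 0.541). Without sampling temperature in the model this value was −0.09.

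**Figure D1:**
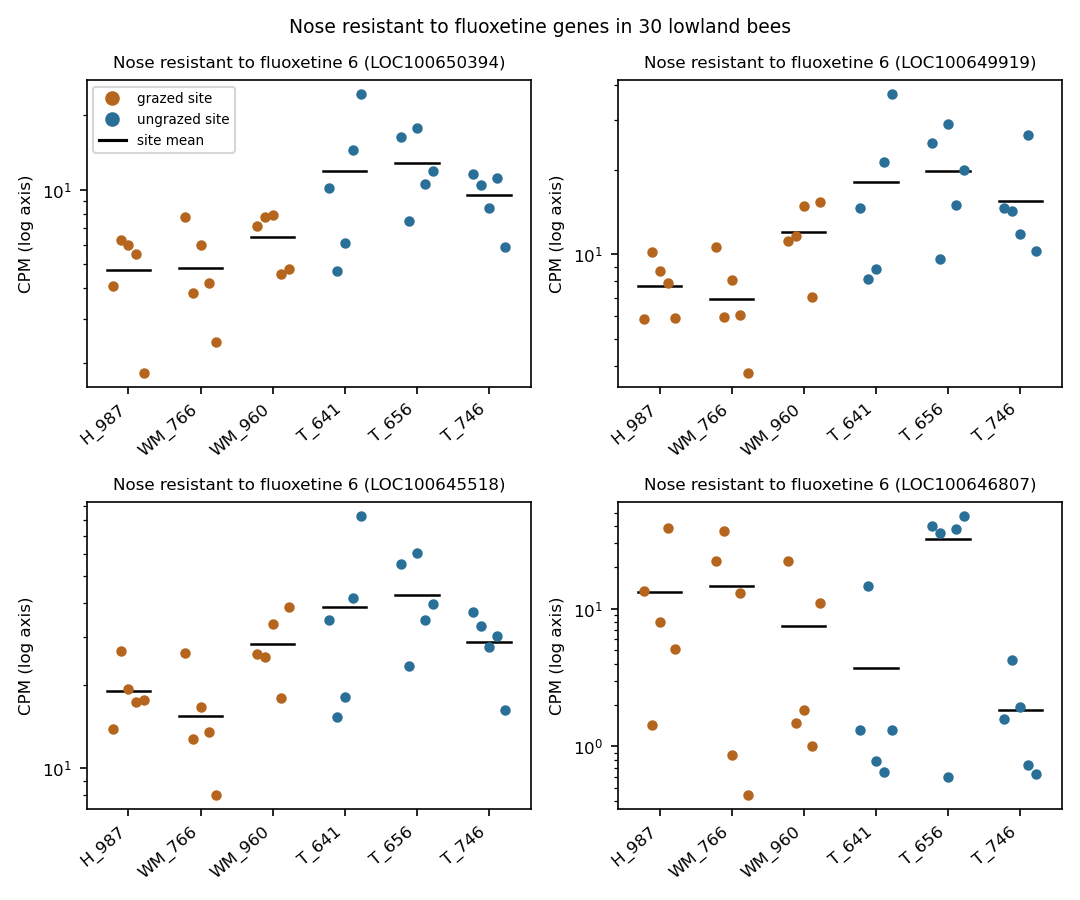
Levels of the 4 tested nose resistant to fluoxetine genes in each lowland bee (points; vertical axis, CPM on a log scale) by site (horizontal axis), with grazed sites in brown, ungrazed sites in blue and site means as lines. In 3 genes the 3 grazed site means lie below the 3 ungrazed ones (in LOC100650394 from 4.73 to 6.43 against 9.51 to 12.8 CPM), whereas LOC100646807 is high at T_656.

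The gene with the largest log2 fold change among the 15 was LOC100650203, named heat shock 70 kDa protein cognate 4 after a chaperone of Drosophila that folds proteins in unstressed cells. It ranged from 0.542 through 3.24 to 46.0 CPM in grazed bees and from 0.376 through 0.85 to 2.85 CPM in ungrazed bees. The high levels were found in single bees, as 8 of the 15 grazed bees exceeded the highest ungrazed bee and the others lay within the ungrazed range. These 8 came from all 3 grazed sites. Its log2 fold change was 2.81 (SE 0.56, adjusted p = 0.0505), and 2.06 without bee 4 of WM_960, the highest. Even so, most bees of all sites held a few CPM of this gene or less.

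Hexamerin and a vitellogenin-like gene were high in several of the same bees. Hexamerins are storage proteins that the fat body releases into the blood, and vitellogenin is the yolk precursor. The gene named hexamerin, LOC100650380, ranged from 0.237 through 9.14 to 3360 CPM in grazed and from 0.435 through 1.71 to 607 CPM in ungrazed bees. Its site means were 817, 630 and 674 CPM at H_987, WM_766 and WM_960 and 134, 1.45 and 2.23 CPM at T_641, T_656 and T_746. The log2 fold change was 3.97 (SE 1.42, adjusted p = 0.196), and between 1.78 and 6.99 when single bees were left out, with the lowest value without bee 4 of WM_960 and the highest without bee 2 of T_641.

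In 7 bees hexamerin stood above 250 CPM, a limit chosen after the levels had been seen, and the other 23 bees had at most 78.1 CPM. Of these bees 6 were grazed and 1 was ungrazed. They were bees 2 and 3 of H_987, bees 2, 3 and 4 of WM_766, bee 4 of WM_960 and bee 2 of T_641. The same 7 bees had the 7 highest levels of LOC100643258, named vitellogenin-like, from 12.1 to 222 CPM, while the next bee had 10.2 CPM. They also had the 7 lowest levels of Kr-h1 (kruppel homolog 1), the transcription factor that carries the juvenile hormone signal in insects, from 3.93 to 10.3 CPM, while the next bee had 11.4 CPM. Of the 7, 6 were among the 7 highest bees for the heat shock cognate LOC100650203 and 6 among the 7 highest for LOC100650798, a gene named mitochondrial uncoupling protein 2. The bees were grouped here by a measured level, so that no test was run between them and the others. Whether their share differs between grazed and ungrazed sites was not tested. The genes set beside hexamerin were chosen after their values were seen. How many of all tested genes rank these bees in the same way was not counted.

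Across all bees, Kr-h1 ranged from 3.93 through 13.3 to 41.0 CPM in grazed and from 9.45 through 33.1 to 47.8 CPM in ungrazed bees. The 3 grazed site means of 11.1, 17.3 and 27.1 CPM lay below the ungrazed ones of 31.2, 34.4 and 31.5 CPM. The 4 lowest grazed bees lay below every ungrazed bee and the others within the ungrazed range. The log2 fold change was −0.93 (SE 0.29, adjusted p = 0.143). Vitellogenin-like had a log2 fold change of 2.39 (SE 0.88, adjusted p = 0.209), which was 1.15 without bee 4 of WM_960, and uncoupling protein 2 one of 0.91 (SE 0.28, adjusted p = 0.146), which was 0.58 without T_656.

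**Figure D2:**
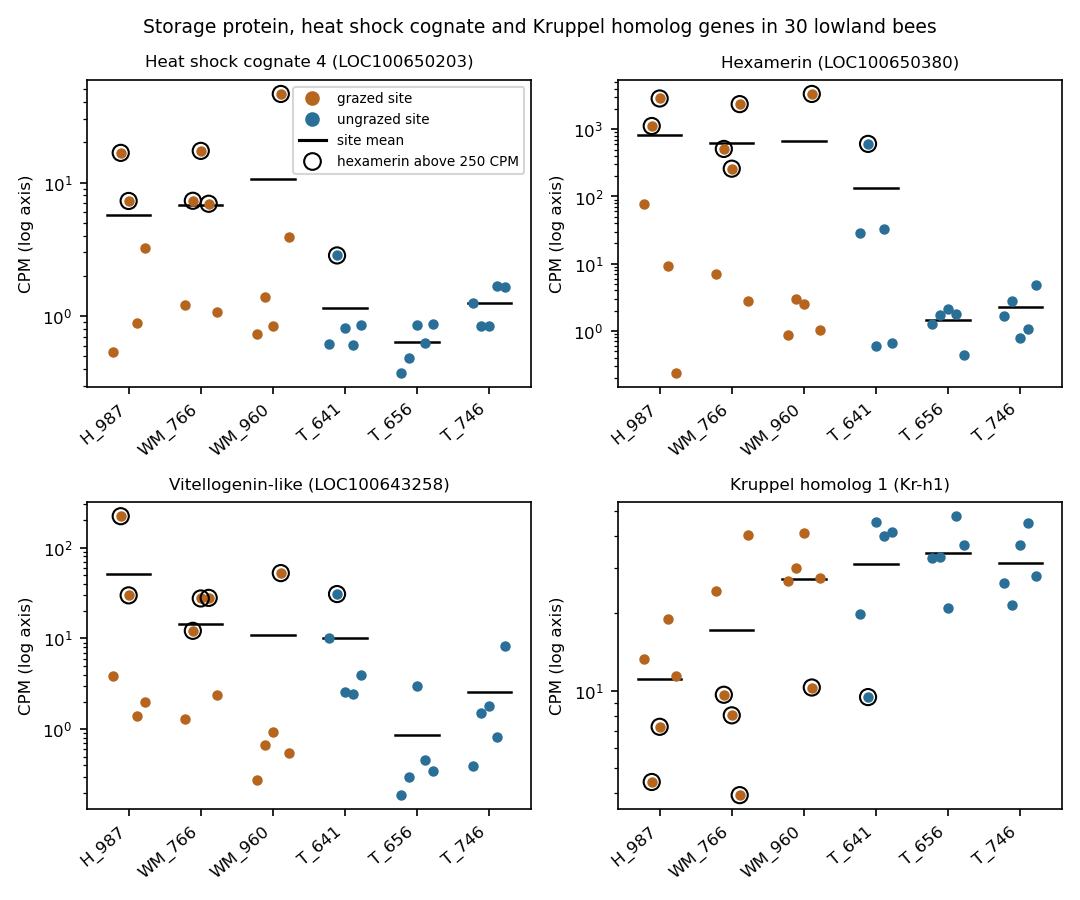
Levels of heat shock cognate 4, hexamerin, vitellogenin-like and kruppel homolog 1 in each lowland bee (points; vertical axis, CPM on a log scale) by site (horizontal axis), with site means as lines and the 7 bees with hexamerin above 250 CPM ringed. The ringed bees, 6 grazed and 1 ungrazed, hold the highest vitellogenin-like levels, from 12.1 CPM, and the lowest Kr-h1 levels, up to 10.3 CPM.

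The gene named vitellogenin itself, LOC100649251, was not high in these 7 bees as a group. They had 6.74 to 54.0 CPM of it, and 4 were among the 7 lowest of all bees and 1 among the 7 highest. Its medians were 15.4 CPM in grazed and 17.3 CPM in ungrazed bees, and 5 grazed bees exceeded the highest ungrazed bee, with bee 5 of H_987 at 328 CPM and bee 5 of WM_960 at 386 CPM. The log2 fold change of 1.90 (SE 0.55, adjusted p = 0.123) rested on these bees, and was 0.91 without bee 5 of H_987 and −0.22 without that bee and the site WM_960. Of the 9 fat body genes tested, 4 were higher and 0 lower at an unadjusted p under 0.05, against 9.63% and 4.52% of all genes, with a median log2 fold change of 0.38. In the fat body list 1 was higher without bee 4 of WM_960, 1 without T_746 and 2 without WM_960, and the median was 0.75 without T_641. Besides the 3 genes named above, the fourth was an acyl-CoA desaturase gene, LOC100649922, with a value of 0.38 (SE 0.18, adjusted p = 0.325).

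Among genes of stress and defence, 4 of 16 heat shock and chaperone genes were higher and 0 lower at an unadjusted p under 0.05, against 9.63% and 4.52% of all genes, with a median log2 fold change of 0.17. Without WM_960, 2 were higher and 1 lower. They were the heat shock cognate, 2 genes named protein lethal(2)essential for life, which belong to the small heat shock proteins, and the mitochondrial 10 kDa heat shock protein. LOC105666325, of the small heat shock type, ranged from 88.0 through 182 to 1632 CPM in grazed and from 68.2 through 157 to 434 CPM in ungrazed bees, a log2 fold change of 1.39 (SE 0.40, adjusted p = 0.123). The groups overlapped over most of their range and 5 grazed bees exceeded all ungrazed ones. The log2 fold change of LOC105667104 was 1.09 (SE 0.47, adjusted p = 0.292), 0.29 without bee 5 of H_987 and −0.73 without bee 5 of H_987 and the site WM_960. Heat shock protein 83, LOC100645819, had a value of 0.18 (SE 0.33, adjusted p = 0.845).

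Of 10 immune genes, 3 were higher and 1 was lower at an unadjusted p under 0.05, against 9.63% and 4.52% of all genes. In the immunity list the count of higher genes was 2 without T_641, T_656 or T_746, and that of lower genes 0 without T_656 or WM_766. Lysozyme 2, LOC100649284, which cleaves bacterial cell walls, ranged from 19.3 through 95.3 to 178 CPM in grazed and from 18.5 through 52.7 to 86.7 CPM in ungrazed bees. Of the grazed bees 8 exceeded the highest ungrazed bee, and they came from all 3 grazed sites. The log2 fold change was 0.89 (SE 0.26, adjusted p = 0.123). Toll-like receptor 7 (LOC100646856) had a value of 0.58 (SE 0.22, adjusted p = 0.227), or 0.35 without bee 5 of H_987, and the serine protease snake (LOC100646730) one of 0.62 (SE 0.26, adjusted p = 0.26). The lower gene was LOC100644296, named ubiquitin thioesterase trabid, at −0.49 (SE 0.21, adjusted p = 0.293). The antimicrobial peptide defensin (Def) had a log2 fold change of −0.42 with a wide error (SE 0.71, adjusted p = 0.826).

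In 34 genes (0.367%) all 15 grazed bees lay above the ungrazed median. LOC100644739, named cilia- and flagella-associated protein 52, was such a gene, with 3.25 through 5.08 to 7.43 CPM in grazed and 1.595 through 3.13 to 6.44 CPM in ungrazed bees and a log2 fold change of 0.70 (SE 0.17, adjusted p = 0.0706). LOC100648082, named exonuclease 1 after a nuclease of DNA repair, was another, with 3.38 through 6.31 to 21.8 CPM against 2.20 through 3.25 to 7.59 CPM and a log2 fold change of 1.01 (SE 0.26, adjusted p = 0.102). LOC100649549, named mucin-5AC after a secreted gel-forming protein, belongs to the list of genes typical of gut. It was at 0.923 through 1.59 to 8.84 CPM against 0.566 through 0.837 to 1.94 CPM, a log2 fold change of 1.42 (SE 0.35, adjusted p = 0.0725). These are genes at a few CPM, whose ranges overlapped between the groups. For exonuclease 1 the site means overlapped too, with 5.11 CPM at WM_766 and 5.27 CPM at T_656. For mucin-5AC they were close, with 1.24 CPM at WM_766 and 1.23 CPM at T_641. Without WM_960 the log2 fold change of exonuclease 1 was 0.65 and that of LOC100644739 was 0.46, and without H_987 that of mucin-5AC was 0.94.

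The following 4 genes of lipid transport and turnover had lower levels in grazed bees, but stand for no group. The lipase and cytochrome b5 were chosen after their values were seen, and lipid genes as a whole were not counted. The acyl-CoA desaturase gene named above, for instance, was higher. LOC100644985, named ATP-binding cassette sub-family G member 1 (ABCG1) after a transporter that moves sterols out of cells, ranged from 42.6 through 73.2 to 163 CPM in grazed and from 57.5 through 165 to 302.4 CPM in ungrazed bees. All 15 grazed bees lay below the ungrazed median, although the lowest ungrazed bees, bees 1 and 2 of T_641, were as low as grazed ones. The log2 fold change was −0.84 (SE 0.22, adjusted p = 0.102), and the related LOC100644506, ABCG4 by name, had −0.75 (SE 0.27, adjusted p = 0.196). LOC100642748, named diacylglycerol lipase beta, had −0.83 (SE 0.25, adjusted p = 0.128), and LOC100648950, named cytochrome b5 after an electron carrier of fatty acid desaturation, had −1.02 (SE 0.29, adjusted p = 0.123) with all 15 grazed bees below the ungrazed median.

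Of the 30 tested peroxisome genes, 0 were higher and 13 lower at an unadjusted p under 0.05 (43.3%, against 4.52% of all genes), 28 had a log2 fold change below 0, and the median was −0.50. Peroxisomes break down very long fatty acids and make ether lipids. This list was drawn by the study on these bees among others, so that its direction is not independent evidence. A list of 13 peroxisome and fatty acid oxidation genes made by name gave a smaller shift, with 1 higher, 2 lower and a median of −0.12. The pathway member LOC100647369, named fatty acyl-CoA reductase wat, ranged from 58.8 through 106 to 478 CPM in grazed and from 101 through 252 to 511 CPM in ungrazed bees, with 6 grazed bees below every ungrazed one and a log2 fold change of −0.94 (SE 0.28, adjusted p = 0.123). The mean centred log2 level of the list was −0.45 at H_987, −0.40 at WM_766 and 0.04 at WM_960, against 0.21 at T_641, 0.61 at T_656 and −0.01 at T_746. WM_960 and T_746 were thus alike, and both hold bees of the low temperature class only. Among the bees of the high class, 22 members were lower and the median was −0.90. Among those of the low class, where all grazed bees are of WM_960, 1 was lower and 1 higher, with a median of 0.09. The count of lower members was 5 without H_987, 11 without T_641, 7 without T_656, 20 without T_746, 8 without WM_766 and 24 without WM_960, and 20 without bee 2 of T_746. With altitude added to the model 0 members reached this p, with a median of −0.61, and limma-voom with the site as a block gave 7 lower.

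The listed driver genes of unsaturated fatty acid synthesis pointed the same way with smaller values, although the acyl-CoA desaturase gene named above, outside this list, was higher. Of 17 genes of unsaturated fatty acid synthesis, all 17 had log2 fold changes below 0, 4 of them at an unadjusted p under 0.05 (23.5%, against 4.52% of all genes), with a median of −0.42. Among leave-outs the count ran from 2 without H_987 to 9 without bee 2 of T_746 (8 without T_746 and 8 without WM_960), and the median was −0.16 without T_656. It was 0 with altitude added and 2 with limma-voom and the site as a block, and the median was −0.07 in the low temperature class. The member LOC105666309, named after the elongases of very long fatty acids, had a log2 fold change of −0.95 (SE 0.38, adjusted p = 0.241). Of 16 ABC transporter genes, which include both ABCG genes, 4 were lower (25%) and 0 higher, with a median of −0.24, but 2 were lower without H_987 and 7 without WM_960. Both lists hold only the genes that the study named as drivers of the pathway, not the whole pathway. They were drawn on these bees too, so that a common direction of their members is not independent evidence.

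Of 26 detoxification genes, 0 were higher and 4 lower at an unadjusted p under 0.05, against 9.63% and 4.52% of all genes, with a median of −0.09. Without T_656 the median of the detoxification list was 0.31 with 3 higher and 3 lower, without H_987 it was 0.04, and without WM_960 it was −0.65 with 10 lower. These 4 were the ABCG genes, given above among genes of lipid transport, and 2 cytochromes P450. The ABCG genes also count among the ABC transporters, and the P450 LOC100644009 among the hormone genes below. The list was made by name and is thus broader than detoxification itself. LOC100647566, P450 9e2 by name, ranged from 363 through 576 to 2014 CPM in grazed and from 304 through 1122 to 2434 CPM in ungrazed bees, a log2 fold change of −0.77 (SE 0.28, adjusted p = 0.201), and 13 of the 15 grazed bees lay below the ungrazed median. Leaving out T_656 brought this value to −0.25. LOC100644009, a mitochondrial P450 whose namesake acts in ecdysteroid synthesis in Drosophila, had −1.14 (SE 0.35, adjusted p = 0.132), with 14 of 15 grazed bees below the ungrazed median.

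Of 17 hormone and receptor genes, 1 was higher and 3 lower at an unadjusted p under 0.05, against 9.63% and 4.52% of all genes. Of the hormones and receptors, 1 was lower without WM_960, 2 were lower without H_987 or T_746, and 0 were higher without H_987, T_641 or WM_960. The lower ones were the P450 LOC100644009, a tachykinin receptor gene (LOC100647109, −0.60, SE 0.24, adjusted p = 0.235) and an insulin-like growth factor binding protein subunit gene (LOC100643966, −0.47, SE 0.14, adjusted p = 0.136). The higher one encodes allatostatins, peptides that inhibit juvenile hormone synthesis in some insects (LOC100648558, 1.29, SE 0.53, adjusted p = 0.259).

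Flight muscle genes were high at the grazed site WM_960 and in bee 5 of H_987, and 5 grazed bees exceeded the highest ungrazed bee, which was of T_656. Of 14 tested genes, 11 were higher and 0 lower at an unadjusted p under 0.05 (78.6%, against 9.63% of all genes), with a median log2 fold change of 1.49. Their summed level was 3140 through 4510 to 62700 CPM in grazed and 3160 through 4390 to 8730 CPM in ungrazed bees, so that the medians were alike. By site, the level was 8450 through 13300 to 62700 CPM at WM_960, and 3210 through 3340 to 4510 CPM at WM_766. At H_987, bee 5 stood at 46900 CPM and the site median was 3350 CPM. Troponin C (LOC100647229), the calcium sensor of contraction, ranged from 12.4 through 38.1 to 1389 CPM in grazed and from 11.4 through 40.9 to 85.1 CPM in ungrazed bees, a log2 fold change of 2.39 (SE 0.68, adjusted p = 0.123). Its value was 1.02 without bee 5 of H_987. Without that bee, 2 members were higher at this p, and without it and bee 5 of WM_960 the median of the list was 0.10, with 1 member higher and 1 lower. Without bee 5 of H_987 and the site WM_960 it was −0.45, with 0 higher and 6 lower. The same exclusion gave 1196 higher and 1239 lower genes of 9394 over the whole table, and excluding only the pair of bees gave 679 and 586 of 9269. These exclusions were chosen after the data were seen. The count was 6 without T_746 and 5 without WM_960. With altitude added to the model the median was −0.57 with 0 members higher and 0 lower, and limma-voom with the site as a block gave 1 higher and 0 lower.

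Oxidative phosphorylation genes, which encode the respiratory chain, followed the muscle genes only in part. They were high in bee 5 of H_987 and at WM_960, apart from its lowest bee at 4150 CPM. At the ungrazed site T_656 the median of summed muscle levels was 4390 CPM, whereas oxidative phosphorylation genes summed to 5740 through 6810 to 11200 CPM. Of 30 members, 18 were higher and 0 lower at an unadjusted p under 0.05 (60%, against 9.63% of all genes), with a median of 0.60. A list of 13 oxidative phosphorylation genes made by name had 4 higher and 0 lower, and a median of 0.11. In the high temperature class 0 of the 30 pathway members were higher, with a median of 0.20, and in the low class 30, with a median of 1.15. With library size added 7 were higher. Their summed level was 3710 through 4880 to 36900 CPM in grazed and 3330 through 5440 to 11200 CPM in ungrazed bees, with the ungrazed median above the grazed one. The member LOC100644237, named cytochrome b-c1 complex subunit 9, had 27.4 through 43.0 to 1060 CPM in grazed and 20.0 through 45.9 to 166 CPM in ungrazed bees, a log2 fold change of 1.77 (SE 0.52, adjusted p = 0.123). Without bee 5 of H_987, 1 member was higher, without bee 2 of T_746 11, and without that bee of H_987 and the site WM_960, 0 were higher and 21 lower with a median of −0.44. The count was 2 without H_987, 4 without T_641, 2 without T_746 and 2 without WM_960. With altitude added the median was −0.73, with 0 members higher and 1 lower, and limma-voom with the site as a block gave 2 higher. This list was drawn by the study on these bees among others, so that its count is not independent evidence.

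**Figure D3:**
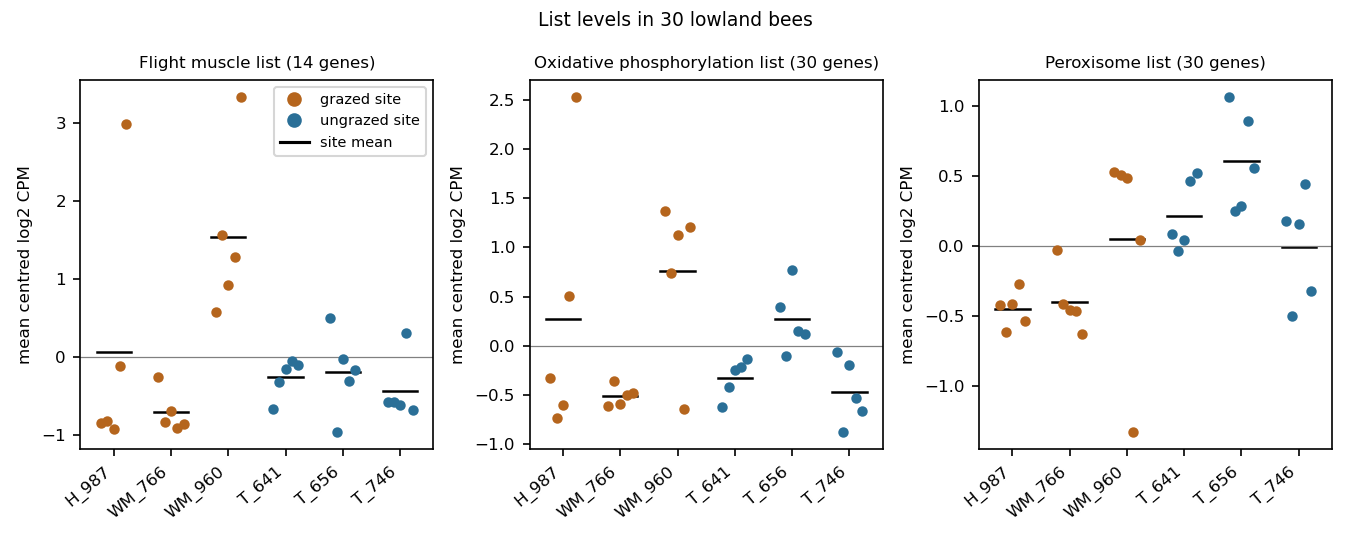
Mean centred log2 CPM of the flight muscle, oxidative phosphorylation and peroxisome lists in each lowland bee (points; vertical axis) by site (horizontal axis), with site means as lines. The muscle and respiration lists are high in bee 5 of H_987 and at WM_960 (for respiration in 4 of its 5 bees). At the ungrazed site T_656 the respiration list lies above 0 (mean 0.27) and the muscle list below 0 (mean −0.19). The peroxisome list is low at H_987 (mean −0.45) and WM_766 (mean −0.40) and high at T_656 (mean 0.61).

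Lists of genetic information processing, the genes that copy, repair and translate the genome, differed among themselves. Of 23 DNA replication genes 0 were higher and 0 lower at an unadjusted p under 0.05, with a median log2 fold change of 0.04. Of 33 aminoacyl-tRNA synthesis genes 5 were higher (15.2%) and 0 lower, and of 31 ribosome biogenesis genes 4 were higher (12.9%) and 0 lower, against 9.63% of all genes. Of 6 mismatch repair genes 2 were higher (33.3%) and 0 lower, with a median of 0.21 against 0.04 for all genes. These lists too were drawn by the study on these bees. Among lists made by gene name, 0 of 5 ribosomal protein genes and 0 of 10 genes of glycolysis and trehalose use reached this p in either direction, and 0 of 6 oxidative stress genes did. Of the lists of other cell types, the counts of higher genes were 3 of 18 for gut, 4 of 17 for testis or sperm and 0 of 8 for venom gland, with 1 of the venom genes lower.

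**Figure D4:**
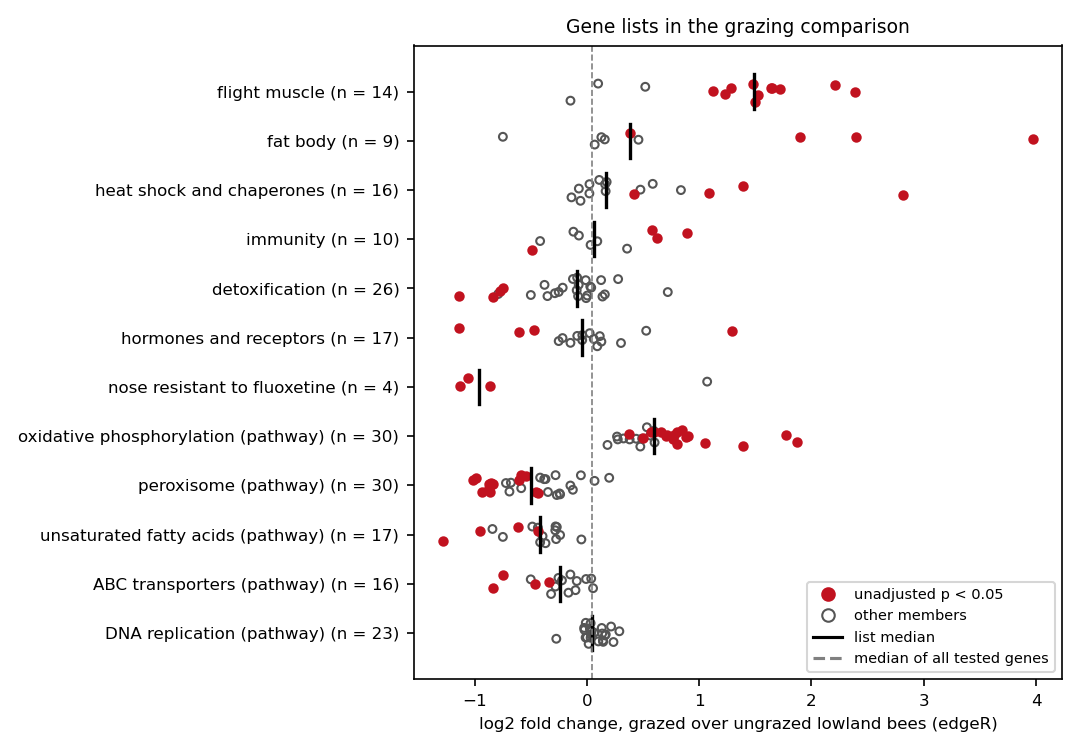
Log2 fold changes of grazed over ungrazed lowland bees (horizontal axis, edgeR) for the members of 12 gene lists (rows; filled points, unadjusted p under 0.05; black bars, list medians; dashed line, median of all tested genes, 0.04). Flight muscle (median 1.49) and oxidative phosphorylation (0.60) lie to the right and peroxisome (−0.50) to the left, and DNA replication (0.04) lies on the dashed line.

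Highland bees served as a second set, with 5 bees of the grazed site WM_1655 against 21 of 4 ungrazed sites. Sampling temperature was not used for them, and 1 grazed site gives no spread between grazed sites. Of 9519 genes tested there, 15 were higher (0.158%) and 35 lower (0.368%) at both thresholds, and 664 (6.98%) and 658 (6.91%) at an unadjusted p under 0.05. Of the 15 lowland genes at an adjusted p of 0.0505, 13 had the same direction in highland bees and 1 reached an unadjusted p under 0.05 there. That gene was LOC100649919 of the nose resistant to fluoxetine family, chosen for mention by this value.

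The 3 nose resistant to fluoxetine genes had highland log2 fold changes of −0.87 (LOC100650394, SE 0.45), −0.97 (LOC100649919, SE 0.40) and −1.004 (LOC100645518, SE 0.41), with adjusted p values of edgeR between 0.255 and 0.385. ABCG1 had −1.33 (SE 0.43, adjusted p = 0.152) and P450 9e2 −1.21 (SE 0.36, adjusted p = 0.117). Of the 30 peroxisome genes, 23 were lower and 0 higher at an unadjusted p under 0.05 in highland bees, with a median of −0.93, but the study had drawn this list on its bees, highland ones included, so that the count is no independent repeat. Of 26 detoxification genes, a list made by name, 9 were lower and 0 higher, with a median of −0.87, while 6.91% of all genes were lower. The 18 genes typical of gut were lower there as well, with 5 lower, 0 higher and a median of −1.48. Whether gut left after dissection has a part in these highland values was not tested.

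Some other genes had lower or near-zero values there. Lysozyme 2 had a highland log2 fold change of −0.58 (SE 0.39, adjusted p = 0.522), the small heat shock gene LOC105666325 one of −1.35 (SE 0.81, adjusted p = 0.473) and the heat shock cognate LOC100650203 one of 0.15 (SE 0.93, adjusted p = 0.966). The median of the flight muscle list was −0.49 with 1 member higher and 2 lower, and that of oxidative phosphorylation −0.50 with 0 higher and 3 lower. A direct edgeR test of the difference between belts, run without sampling temperature on 9700 genes, called 1 gene (0.0103%) with a higher and 0 (0.0%) with a lower effect in the highland, while 321 (3.31%) and 650 (6.7%) passed the unadjusted level of 0.05. The difference of lysozyme 2 was −1.48 (SE 0.48, adjusted p = 0.25) and that of troponin C −4.37 (SE 1.16, adjusted p = 0.171).

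**Figure D5:**
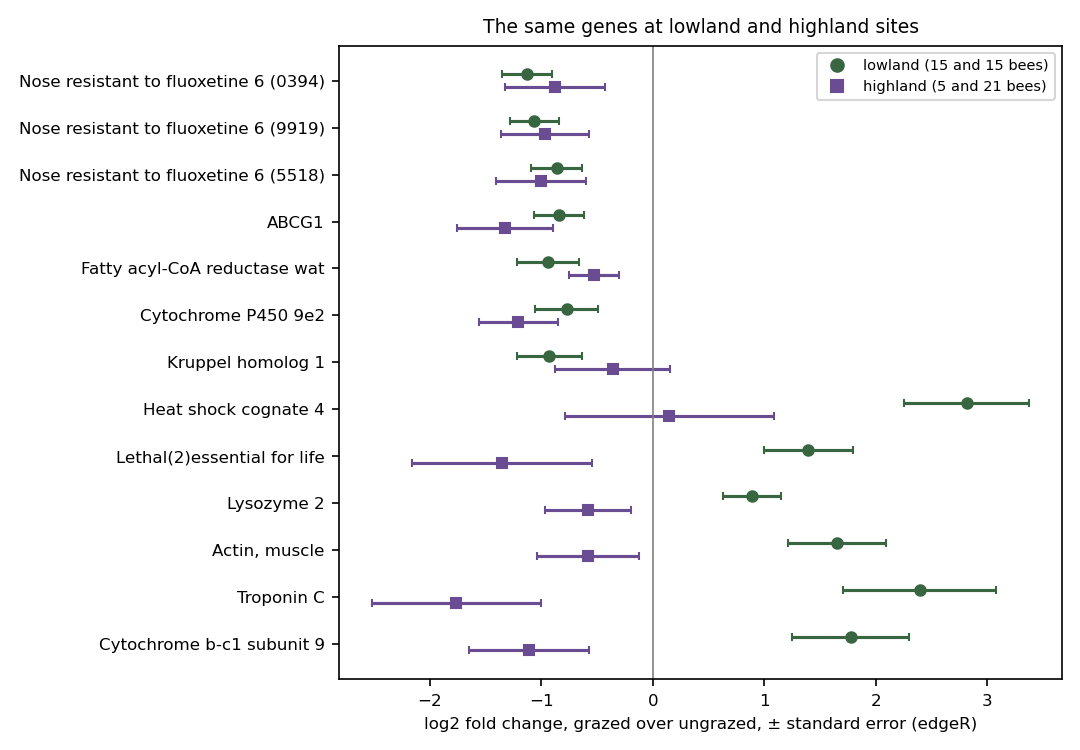
Log2 fold changes of grazed over ungrazed bees with standard errors (horizontal axis, edgeR) for 13 named genes (rows) at lowland sites (circles, 15 and 15 bees) and highland sites (squares, 5 and 21 bees). The 3 nose resistant to fluoxetine genes (lowland −1.13 to −0.86, highland −1.004 to −0.87), ABCG1 and P450 9e2 lie below 0 in both, whereas actin, troponin C, lysozyme 2 and lethal(2)essential for life lie above 0 in the lowland and below 0 in the highland.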

How the data were processed

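Poly-A RNA of thorax and abdomen was sequenced from 1 library per bee. The paper reports RNA integrity from low to high over its samples, and a larger preparation volume for a few libraries. Neither entered any fit, and their part in the results was not tested. According to their notes and methods, the authors trimmed reads with cutadapt 2.5, aligned them with STAR 2.7.2b to the Bombus terrestris assembly Bter_1.0 and counted them by strand with featureCounts 1.6.4 on exons of protein-coding genes. The deposited values are estimated counts without normalization, since the authors divided reads that match several genes, and 28.5% of the values are not whole. The table holds 10581 genes, of which 1777 carry a name in the sources used here. Contigs are given by accession, so no coordinates are printed, and no sequences were at hand.

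Grazing class and sampling temperature came from the study's site and sampling tables and the groups from the labels. Counts were rounded, filtered with filterByExpr and scaled with TMM, and grazing was tested in the 30 lowland bees by quasi-likelihood in edgeR 4.0.16 (R 4.3.3), with sampling temperature in degrees as a covariate and Benjamini-Hochberg adjustment over 9273 genes. The threshold was an adjusted p under 0.05 with a log2 fold change of at least 0.5, and the SE is the log2 fold change over the square root of F. A prior count of 2 entered log2 CPM. Bees were treated as independent, whereas the correlation within sites, estimated with limma 3.58.1, was 0.107. Counts per lowland bee had a median of 24837758, and intervals between bees include counting error. On simulated counts, the test called 77.8% of genes changed by a log2 fold of 1 and 98% of those changed by 2 (9254 genes). Of 9055 unchanged genes, 6 were called. The simulated bees were drawn independently, without effects of site or temperature, so these shares are not the power of the real design.

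Lists were made by gene name, or from the driver genes of pathways in the study's tables (78 complete, 13 cut short and not used). The clock list also took cell division genes, and the haemocyte list holds laminins. The members and lists were chosen with earlier results of these data known. Named genes were to be up to 12 per direction among genes past both thresholds, of which there were 0, and of each list the member of smallest p. The 15 genes of lowest adjusted p and further genes were chosen after their values were seen. Alternatives were other or no covariates, either temperature class, DESeq2 1.42.0, other scalings, no filter, no rounding, no fold threshold, site blocks or sums, the bee number as a block, 81 bees in 1 fit, and each site or bee left out. The authors' own fold changes and p-values were not used.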

Additional observations from a re-analysis of the deposited data

Results flagged for a closer look

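Of 12 genes examined in 6 sites of 5 bees each, 4 of the 72 groups held a bee far from the other 4 by Dixon's criterion, which chance alone gives in about 1 of 20 groups. Bee 2 of T_641 had 2.85 CPM of the heat shock cognate LOC100650203, above the other bees of that site, and it was also the ungrazed bee with hexamerin above 250 CPM. Bee 5 of H_987 had 327.5 CPM of vitellogenin (LOC100649251), while the next bee of that site had 17.6 CPM, and this bee also had the second highest flight muscle level of all lowland bees. Bee 4 of WM_960 had 3360 CPM of hexamerin (LOC100650380), while the other bees of that site had at most 2.98 CPM. Bee 1 of H_987 had 133.3 CPM of ABCG1 (LOC100644985), while the others of that site had at most 70.3 CPM.

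The effect of grazing on LOC100644099, a gene without a name, differed between highland and lowland bees in edgeR, with a difference of 2.39 on the log2 scale (SE 0.47, adjusted p = 0.0395). Its log2 fold change was −0.48 in lowland bees (adjusted p = 0.35) and 1.99 in highland bees (adjusted p = 0.0392). At WM_1655, the only grazed highland site, its level ran from 14.6 through 19.2 to 208 CPM, with a mean of 91.2 CPM, while the medians of the ungrazed highland sites ran from 15.1 to 24.7 CPM, so that its median lay among theirs. Of the 6 fits of this difference, the gene count was 0 with limma-voom and the site as a random block and 0 with the bee number as a block.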

How the results depend on the processing

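The counts of called genes depended on the fit. Higher and lower genes were 9 and 6 with a gut score added, 27 and 28 with the slope of level on exon length added, 1 and 3 in the high and 393 and 251 in the low temperature class, 79 and 60 with DESeq2, 70 and 52 with its fold-change prior, 35 and 8 with 81 bees in 1 fit, and 130 and 193 without bee 5 of H_987 and site WM_960. In the low class all grazed bees are of 1 site. Leaving out a site gave 0 to 61 higher and 0 to 66 lower genes (61 and 27 without WM_766, 26 and 66 without WM_960, 0 otherwise), and leaving out a bee 0 to 21 and 0 to 15, with calls in 7 of 30 fits. The other alternatives called 0 genes, among them the bee number as a replicate block (0 and 0, while 694 and 450 genes passed the unadjusted level). With altitude added the smallest adjusted p was 0.693. Bees of the same number at different sites did not deviate together (mean correlation 0.005 over 75 pairs), so the number only names a bee. For the difference between belts, DESeq2 called 67 genes, limma-voom 0 and the replicate block 0, against 1.

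Of 3933 values of 69 genes, 40 were reversed and 280 passed the threshold. With altitude added the log2 fold changes that reversed were 0.15 (LOC100652227), −0.0847 (LOC100647956), −0.66 (LOC100649251), 0.10 (LOC100644474), 0.15 (LOC100643557), −0.53 (LOC100646129), −1.20 (LOC100644237), −0.12 (LOC105667166), −0.87 (LOC105667104), −1.10 (LOC100648427), −1.66 (LOC100647229), −1.25 (LOC100646315), −0.51 (LOC100646273), −0.54 (LOC105666838), −0.76 (LOC100651452) and −0.70 (LOC100648928). Without bee 5 of H_987 and site WM_960 they were −0.22 (LOC100649251), 0.11 (LOC100644474), −0.13 (LOC100646129), −0.33 (LOC100644237), −0.73 (LOC105667104), −0.63 (LOC100648427), −0.85 (LOC100647229), −0.80 (LOC100646315), −0.33 (LOC100646273), −0.41 (LOC100651452), −0.40 (LOC100648928) and −0.19 (LOC100643538), and without bees 5 of H_987 and WM_960 −0.12 (LOC105667104), −0.0089 (LOC100646315) and −0.011 (LOC100651452). In the low class they were 0.27 (LOC100643557), 0.62 (LOC100643514) and 0.24 (LOC100647566), and 0.10 without T_656 (LOC100643514). LOC100646807 was −0.86 in the high class, −0.0919 without temperature, −0.20 with site sums and no covariate, −0.13 with 81 bees and between −0.014 (without WM_960) and 1.96 (without T_656) with a site left out. The cause was not tested. Of 1653 list medians, 79 moved.

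Every grazed site lay higher than every ungrazed one, so that a fit with altitude added has little information on grazing itself. Each group has 3 sites, and genes at a few CPM have wide relative errors.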

Other observations

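The following single genes were chosen after their values were seen, and stand for no group. The list of 6 brain or nerve genes had 1 higher and 0 lower at an unadjusted p under 0.05, with a median log2 fold change of 0.09, and the higher one was synaptotagmin-7 (LOC100647956, 0.47, SE 0.21, adjusted p = 0.303). LOC100646670, named after the potassium channel Shab, ranged from 12.7 through 25.8 to 58.7 CPM in grazed and from 19.0 through 45.8 to 110 CPM in ungrazed bees, a log2 fold change of −0.85 (SE 0.21, adjusted p = 0.0733). Of the 15 grazed bees, 14 lay below the ungrazed median. LOC100649283, named after the adhesion receptor latrophilin Cirl, had −0.52 (SE 0.14, adjusted p = 0.102), with 8 grazed bees below every ungrazed one. LOC100646372, named ALK tyrosine kinase receptor, had −0.54 (SE 0.17, adjusted p = 0.147), with all 15 grazed bees below the ungrazed median. In each of these 3 genes the grazed site means lay apart from the ungrazed ones. LOC100650566, named protein henna after the phenylalanine hydroxylase of Drosophila, had −0.82 (SE 0.24, adjusted p = 0.123).

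Higher in grazed bees was LOC100648070, named enhancer of split mbeta after a target of Notch signalling, with 4.11 through 11.9 to 82.6 CPM against 3.06 through 6.32 to 14.7 CPM and a log2 fold change of 1.30 (SE 0.36, adjusted p = 0.123). Of the grazed bees 13 lay above the ungrazed median, and the value was 0.94 without bee 2 of WM_960, the highest.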
